A study of Homo sapiens with 50 samples.

Results

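Polycomb repressive complex 2 (PRC2) was represented in a pooled short hairpin RNA (shRNA) screen of chromatin regulators by 43 of 3443 hairpins. They were taken as the hairpins whose target was exactly 1 of 8 subunit genes. The rule used gene names and no measured value, though the 8 genes were listed with earlier results of these data known. EZH2 had 8 hairpins, and EZH1, EED, SUZ12, RBBP4, RBBP7, JARID2 and PHF1 had 5 each. A further 188 hairpins of the library named several genes, and 0 of them named a PRC2 subunit. The 8 names matched 8 current symbols in the RefSeq gene table of GRCh38.p14. The table identifies hairpins by catalogue number (TRCN), and hairpin sequences and target positions were not analysed here.

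The cells were IMR90, a normal human fetal lung fibroblast strain with a finite replicative lifespan, cultured at 3% oxygen. Lentiviral hairpin pools, combined in pairs, infected 10 plates of proliferating cells, which were passaged until growth ceased. Genomic DNA was taken at population doubling (PD) 40, the proliferating reference, then every 5 doublings up to PD60, when the cells were senescent. This gave 50 samples, 10 to a doubling. The groups shared the strain, medium, oxygen and library and differed only in population doubling, and each plate carried a different part of the library, so the plates of a doubling were not repeats of each other.

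The deposited table gave 1 column of sequence tags per doubling, with totals between 8270745 and 11505688. No plate had a column of its own, so no value below carries an error between cultures, and no test between cultures was possible. Levels are given as CPM, a hairpin's tags scaled to a column total of 1e+06. Intervals are exact 95% Poisson intervals and cover counting error only, because PCR copies were not told apart by molecular identifiers. The table measured hairpin DNA, so the degree to which any hairpin lowered its target was not measured.

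PRC2 methylates a lysine in the tail of histone H3 (H3K27), a mark of stably silenced genes. EZH2 or its paralog EZH1 is the methyltransferase, SUZ12 is the scaffold, and EED binds the methylated product and stimulates the enzyme. RBBP4 and RBBP7 are histone-binding chaperones shared with other complexes, while JARID2 and PHF1 are accessory subunits that help to recruit the complex to chromatin. In fibroblasts PRC2 is known for silencing the CDKN2A locus, which encodes the cell cycle inhibitor p16, and EZH2 is known to decline as cells near senescence. The screen asked which such regulators limit lifespan: a hairpin that extends it should gain in abundance on passage.

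Relative to the column total, most PRC2 hairpins were rarer at each later doubling than at PD40, and 2 against EED and 1 against EZH2 were over 2-fold more abundant for part of the course. The median PRC2 hairpin stood at 152, 29.6, 4.36, 0.521 and 0.121 CPM in the successive columns. Over all hairpins the medians were 118, 38.8, 7.78, 0.956 and 0.121 CPM. At PD60, 19 PRC2 hairpins were at 0 tags, or 44.2%, beside 44.1% of the library. A count of 0 at PD60 allows a level of up to 0.363 CPM (3 tags). The levels of the PRC2 hairpins thus began above the library median and passed below it at PD45, PD50 and PD55. At PD60 both medians were 1 tag, a tie near the lower limit of the counts. At PD55 they were 6 tags for PRC2 hairpins and 11 for the library.

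As a fold change, log2 of CPM plus 1 over the same quantity at PD40, the median PRC2 hairpin was at -1.76, -3.73, -5.66 and -6.26 in the 4 later columns. The medians over all hairpins were -1.63, -3.46, -4.93 and -5.86. Hairpins needed 10 tags in either column, which 43 of 43 PRC2 hairpins had for PD45 and PD50 and 42 for PD55 and PD60. With hairpins at 0 set to 3 tags and no pseudocount, the PRC2 median at PD60 was -7.77, against -7.21 over the library. Hairpins with 1 or 2 tags kept their counts and could rank below those at 0, so these medians mix bounds with measured values.

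Over 2-fold lower than at PD40 were 29 of 43 PRC2 hairpins at PD45 (67.4%), where 63.2% of all hairpins were. The count was 38 of 43 at PD50 (88.4%, library 81.9%), 39 of 42 at PD55 (92.9%, library 91.7%) and 41 of 42 at PD60 (97.6%, library 95.3%). Over 2-fold higher were 3 of 43 at PD45, where 5.73% of the library was, and 3 of 43 at PD50 (library 4.94%). At PD55 it was 2 of 42 (library 2.92%), and at PD60 it was 0 of 42, in a library where 2.28% was. At PD45 and PD50, 1 of the 3 was EZH1 TRCN0000002439, which met the minimum only through the columns where it was high and so had to count as higher. No difference between these shares and the library's was tested.

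Directions on this scale are relative to a column total that a small number of very abundant hairpins came to fill. Scaling by the trimmed mean of M-values (TMM) assumes that the bulk of hairpins did not change. It moved the library median at PD60 from -5.86 to -1.87 and the PRC2 median from -6.26 to -2.66. The bulk thus still lay below no change. On that scale 32 PRC2 hairpins were over 2-fold lower at PD60 and 5 over 2-fold higher (library 64.8% and 18.6%). The 5 were EZH2 TRCN0000040073, TRCN0000010474 and TRCN0000040075 and EED TRCN0000021204 and TRCN0000021207, so their direction at PD60 depends on the scaling. Of the PRC2 hairpins, 20 of 43 lay above the library's median fold change at PD45, 17 of 43 at PD50, 16 of 42 at PD55 and 15 of 42 at PD60, always the smaller part.

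The non-targeting hairpin, a control with no intended human target, gave a second reference. It stood at 529, 202, 78.9, 11.6 and 4.72 CPM at the successive doublings. Fold changes above its own were found for 19 of 43 PRC2 hairpins at PD45 (library 44.7%), 12 of 43 at PD50 (27.9%, library 39.2%), 19 of 42 at PD55 (45.2%, library 61.3%) and 24 of 42 at PD60 (57.1%, library 65.7%). This reference is 1 hairpin, whose own spread between cultures is unknown. A hairpin at 0 tags has a value set by its start alone, so those that began low enough had to lie above the reference. RBBP4 TRCN0000115868, at 79.3 CPM at PD40 and 0 tags at PD60, was at -6.33, against -6.53 for the non-targeting hairpin. The counts at PD55 and PD60 are thus partly fixed by starting abundance, in PRC2 hairpins and in the library.

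A linear trend of log2 abundance on population doubling was tested with edgeR's quasi-likelihood test, fitted on 3116 hairpins and adjusted over all of them by Benjamini-Hochberg. The fit takes its error from how far the 5 columns stray from a line, which is no measure of the spread between cultures, and the columns come from the same plates followed through time. With library sizes set to column totals, 36 of 40 tested PRC2 hairpins fell and 0 rose, in a library where 85.9% fell and 0.866% rose. At an unadjusted p under 0.05 the edgeR counts with column totals were also 36 and 0. DESeq2's Wald test, which changes the scaling to its own size factors as well as the test, called 17 falling and 3 rising at an adjusted p under 0.05, in a library where it called 30.3% and 15.2%. The 4 that passed in neither direction in edgeR with column totals were EZH2 TRCN0000040073, EZH1 TRCN0000002439, EED TRCN0000021204 and EED TRCN0000021207. Not tested for too few tags were EZH2 TRCN0000040077, RBBP7 TRCN0000038886 and PHF1 TRCN0000019185. With TMM scaling 14 fell and 3 rose in edgeR, against 30.5% and 11.4% of the library, so the balance moved with the scaling in PRC2 hairpins as it did in the library. The 3 were EZH2 TRCN0000040073, EED TRCN0000021204 and EZH2 TRCN0000010474. EZH2 TRCN0000010474 was called in both directions. Its slope was -0.17 with column totals (edgeR adjusted p = 0.0199) and 0.18 with TMM scaling (edgeR adjusted p = 0.0342).

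EED, the subunit that reads methylated H3K27, had the highest gene mean of the PRC2 genes at PD50 and PD55, and its 5 hairpins went separate ways. TRCN0000021204 stood at 219, 1057, 1754, 930 and 106 CPM from PD40 to PD60. It was 4.82-fold higher than at PD40 at PD45 (95% counting interval 4.59 to 5.07), 8.00-fold at PD50 (7.63 to 8.40) and 4.24-fold at PD55 (4.04 to 4.46). At PD60 its ratio to PD40 was 0.484 (0.446 to 0.524), which is 16.5-fold below its own peak. It climbed from rank 1086 of the library at PD40 to rank 98 at PD50 and ended at rank 206.

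The second EED hairpin that gained early was TRCN0000021207, with 163, 360, 293, 122 and 4.59 CPM at the 5 doublings. Its ratio to PD40 was 2.21 (2.08 to 2.36) at PD45, 1.80 (1.68 to 1.92) at PD50, 0.751 (0.697 to 0.810) at PD55 and 0.0282 (0.0199 to 0.0389) at PD60. Relative to the column total both were below PD40 at PD60, and TRCN0000021207 was so at PD55. With TMM scaling neither was: TRCN0000021207 was at 4.44 at PD55 and 1.62 at PD60 on the log2 scale, and TRCN0000021204 at 5.71 at PD60. In the trend test with column totals their edgeR adjusted p values were 0.818 for TRCN0000021204 and 0.154 for TRCN0000021207. With TMM scaling TRCN0000021204 passed as a rise (edgeR adjusted p = 0.0360) and TRCN0000021207 did not (edgeR adjusted p = 0.218).

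The other 3 EED hairpins had fewer CPM at each later doubling than at PD40, though TRCN0000021208 was above PD40 with TMM scaling until PD55 (1.20). TRCN0000021205 had 1374, 74, 0, 2 and 0 tags. TRCN0000021206 had 1551, 260, 37, 4 and 1 tags, and TRCN0000021208 had 2309, 1646, 843, 237 and 5. All 3 fell in the trend test with column totals. At PD50 the 5 EED hairpins ranged from -7.32 to 2.99 on the log2 scale (mean -2.00, SD 4.22 over hairpins), and the EED mean ranked 102 of 631 genes with at least 3 measured hairpins. At PD60 the mean was -5.59 (SD 2.76), equal to the median over genes of -5.59. With TMM scaling the EED mean was above 0 at PD45, PD50 and PD55, at 0.41, 0.80 and 1.14, and below 0 at PD60, at -0.37.

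EZH2, the main methyltransferase of dividing cells, had 1 hairpin that stayed abundant and 7 that were over 2-fold lower at every later doubling relative to the column total. With TMM scaling 2 of the 7, TRCN0000010474 and TRCN0000040075, were higher at PD60, at 3.57 and 2.63 on the log2 scale. TRCN0000040073 stood at 610, 559, 1288, 1244 and 488 CPM from PD40 to PD60. Its ratio to PD40 was 0.917 (0.882 to 0.953) at PD45, 2.11 (2.04 to 2.18) at PD50, 2.04 (1.98 to 2.11) at PD55 and 0.800 (0.768 to 0.834) at PD60. It was the only PRC2 hairpin within 2-fold of its PD40 level at PD60 among the 42 measured, and it moved from rank 346 to rank 113 of the library. Its trend did not pass with column totals (slope 0.02 log2 per doubling, edgeR adjusted p = 0.805) and passed as a rise with TMM scaling (slope 0.36, edgeR adjusted p = 0.00442).

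At PD45 these 7 EZH2 hairpins ranged from TRCN0000040074, which went from 344 to 152 CPM (-1.17 on the log2 scale), to TRCN0000010475, which went from 145 to 2.05 CPM (-5.58). TRCN0000010475 was at 0 tags at PD55 and PD60, at least 400-fold lower than at PD40. TRCN0000018365 had 2648, 77, 10, 8 and 6 tags, and TRCN0000040077 had 548, 8, 1, 1 and 0. For 6 of the 8 EZH2 hairpins the first interval, PD40 to PD45, held the largest fall of the course, as it did for 36.9% of the library.

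From PD55 to PD60 the CPM of 3 EZH2 hairpins was higher. For TRCN0000018365, with 0.695 and 0.725 CPM, the tags went from 8 to 6. Its higher CPM thus came only from the smaller column total at PD60. TRCN0000010474 had 14.3 CPM at PD55 and 36.3 at PD60, and TRCN0000040075 had 5.74 and 10.0. TRCN0000010474 was over 2-fold higher at PD60 than at PD55, which was so for 2 of 20 PRC2 hairpins with 10 tags in either column and for 5.40% of the library. The second such hairpin was RBBP7 TRCN0000038887, with 1210, 156, 9, 1 and 21 tags. Relative to the column total both were still below PD40 at PD60, by 9.25-fold and 55.2-fold, and with TMM scaling both were above it, at 3.57 and 0.98 on the log2 scale.

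The EZH2 gene mean was the lowest of the PRC2 genes at PD45, at -3.09 (SD 2.03, 8 hairpins), and ranked 605 of 631 genes. At PD60 it was -5.56 (SD 2.81) and ranked 304. EZH2 hairpins ranged from -8.16 to -0.32 at PD60, with TRCN0000040076, which had 2466 tags at PD40 and 0 at PD60, the lowest. The median over its hairpins at PD60 was -6.60, and the mean without TRCN0000040073 was -6.31.

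EZH1, the paralog of EZH2 with weaker methyltransferase activity, started from few tags. Its hairpins had 2217, 416, 130, 106 and 1 tags at PD40, in the order TRCN0000002442, TRCN0000002441, TRCN0000010708, TRCN0000002440 and TRCN0000002439. TRCN0000002442 went from 257 CPM through 175, 91.5 and 15.6 to 3.51, and was 73.3-fold lower at PD60 (ratio 0.0136, 0.00912 to 0.0197). The next 3 were at 0 tags at PD60, which puts TRCN0000002440 at least 33.9-fold, TRCN0000010708 at least 41.5-fold and TRCN0000002441 at least 133-fold lower.

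TRCN0000002439 had 1, 23, 55, 2 and 1 tags. It passed the minimum of 10 tags only through PD45 and PD50, so it had to be counted as higher there, and its ratio of 56.0 at PD50 had a counting interval of 9.63 to 2250. Without it 2 of 42 PRC2 hairpins were over 2-fold higher at PD45 and 2 at PD50, which are 2 EED hairpins at PD45 and 1 EED and 1 EZH2 hairpin at PD50. With TMM scaling the highest PRC2 gene mean at PD60 was that of EED (-0.37), but with column totals it was that of EZH1, -4.80 (SD 1.08, 4 hairpins). A hairpin that starts at 12.3 CPM cannot go below -3.73 on this scale, and 3 of the 4 hairpins started at 48.2 CPM or less.

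SUZ12, the scaffold without which the complex is unstable, had the lowest PRC2 gene mean at PD60 with column totals, -7.38 (SD 1.12, 5 hairpins). It ranked 618 of 631 genes. With TMM scaling the SUZ12 mean was -2.53, above those of RBBP4 (-3.02) and RBBP7 (-2.63). The 5 SUZ12 hairpins had 788 to 4708 tags at PD40 and 1 to 10 at PD60, and none was at 0. With so few tags left, the value at PD60 depends largely on the start. The 2 most abundant moved later than the rest: TRCN0000038724 had 3786, 3101, 796, 109 and 1 tags, and TRCN0000038726 had 4708, 2347, 708, 190 and 5. TRCN0000038725 went from 1388 to 94 tags at PD45 and to 6 at PD50, and TRCN0000038728 from 788 to 32 and 24. All 5 fell in the trend test with column totals, and 1, TRCN0000038727, did with TMM scaling (slope -0.21, edgeR adjusted p = 0.0245). At PD60 TRCN0000038724 was 3630-fold lower on 1 tag (ratio 0.000275, 6.97e-06 to 0.00154).

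RBBP4 and RBBP7, close paralogs that bind histone H3 and H4, had no hairpin over 2-fold higher at any doubling relative to the column total. With TMM scaling RBBP7 TRCN0000038888 was over 2-fold higher at PD50, at 1.94 on the log2 scale. The 5 RBBP4 hairpins were the most alike of any PRC2 gene at PD60, between -6.74 and -5.92 (mean -6.25, SD 0.34), beside a median SD of 1.55 over all genes. They started within a narrow range, 517 to 913 tags, and 4 ended at 0, where the value on this scale is set by the start alone. At PD45, where none was at 0, they ranged from -2.17 to -0.33, with TRCN0000115867 the highest at 105.8 CPM at PD40 and 83.8 at PD45. It had 913, 736, 95, 6 and 0 tags and the lowest value at PD60. TRCN0000115870, the highest at PD60, had 576, 151, 32, 32 and 1. For 4 of the 5 the largest fall was from PD45 to PD50, the interval of 19.8% of the library.

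RBBP7 held the most abundant PRC2 hairpin at PD40, TRCN0000038885, with 6837 tags (793 CPM). It went to 1611, 163, 24 and then 5 tags, 1311-fold lower at PD60 (ratio 0.000763, 0.000248 to 0.00178) and the lowest PRC2 value at -8.95. TRCN0000038888 kept its level longer, with 65.1 CPM at PD40, 40.8 at PD45 and 40.2 at PD50, then 0.956 at PD55 and 0 at PD60. TRCN0000038884 went from 2383 tags to 0 and TRCN0000038886 from 385 to 0. The RBBP7 mean was -6.79 (SD 1.64) at PD60, and at PD55, at -6.31, it was the lowest of the PRC2 genes and ranked 618 of 631.

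JARID2, a cofactor that helps PRC2 bind nucleosomes, had the highest PRC2 gene mean at PD45, with column totals and with TMM scaling. At PD45 its mean was -0.34 (SD 0.51, 5 hairpins), rank 39 of 631 genes. TRCN0000107368 had 152 CPM at PD40 and 151 at PD45, TRCN0000107369 had 169 and 168, and TRCN0000107367 had 8.58 and 8.54. By PD50 all 5 were over 2-fold lower relative to the column total, at 47.4, 41.3 and 0.590 CPM for these 3. TRCN0000107368 was over 2-fold higher there with TMM scaling, at 1.05 on the log2 scale. At PD60 the mean was -5.61 (SD 1.61), with 3 hairpins at 0 and the others at 1 and 4 tags. With TMM scaling the mean at PD45 was 0.64, so its sign there depends on the scaling.

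PHF1, a Tudor-domain protein of the Polycomb-like family, had 5 of 5 hairpins over 2-fold lower at PD45, between -3.19 and -1.35. TRCN0000019186 had 2085, 825, 155, 35 and 1 tags, and TRCN0000019184 had 1613, 488, 51, 0 and 6. The remaining 3, TRCN0000019187, TRCN0000019188 and TRCN0000019185, began at 977, 245 and 151 tags and ended at 0, 3 and 0. The PHF1 mean was -4.33 (SD 0.74) at PD50, the lowest of the PRC2 genes there, and -6.00 (SD 1.58) at PD60. No PHF1 hairpin had more CPM than at PD40 at any later doubling, and with TMM scaling 1 did, TRCN0000019188 at PD60 (0.42).

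Ordered by the gene mean at PD60, EZH1 (-4.80) was highest, followed by EZH2 (-5.56), EED (-5.59), JARID2 (-5.61), PHF1 (-6.00), RBBP4 (-6.25), RBBP7 (-6.79) and SUZ12 (-7.38). Every neighbouring pair in that order differed by less than the SD over hairpins of at least 1 of the 2 genes. Differences between genes were not tested, since hairpins to 1 gene are not replicates. With TMM scaling the highest mean at PD60 was that of EED (-0.37) and the lowest that of RBBP4 (-3.02). With column totals the order at PD50 was another, with EED (-2.00), EZH1 (-2.26) and JARID2 (-2.72) above RBBP7 (-4.09), RBBP4 (-4.25), SUZ12 (-4.26), EZH2 (-4.30) and PHF1 (-4.33). The EZH1 mean at PD45 and PD50 includes TRCN0000002439, which met the minimum only where it was high. The median over the 5 EZH1 hairpins at PD50, with it among them, was -3.43. The median over 631 genes was -3.21 at PD50 and -5.59 at PD60. At each later doubling 5 of the 8 PRC2 gene means lay below the median over genes. At PD45 and PD50 the EZH1 mean lay above it only through TRCN0000002439. The remaining EZH1 hairpins were at -0.55, -0.94, -2.83 and -3.77 at PD45, beside a median over genes of -1.63. At PD50 they were at -1.48, -3.43, -3.70 and -5.46. Their mean lay below the median over genes at both doublings, and below the JARID2 mean at PD50.

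PRC2 hairpins together held 0.772%, 0.448%, 0.404%, 0.241% and 0.0658% of all tags from PD40 to PD60, while making up 1.25% of the hairpins. The tags of EED and EZH2, paired after their values were seen, made up 42.1%, 56.3%, 87.2%, 97.0% and 98.3% of PRC2 tags. Few of their hairpins carried this. EED TRCN0000021204 and TRCN0000021207 and EZH2 TRCN0000040073 together held 44.1% of PRC2 tags at PD45, 82.5% at PD50 and 95.1% at PD55. The other 6 genes, with 30 hairpins, went from 38560 tags to 17204, 4383, 834 and 90. At PD60, 1 EZH2 hairpin, TRCN0000040073, held 74.2% of the PRC2 tags.

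The share depended on what it was taken of. None (0) of the PRC2 hairpins was among the 50 hairpins with the most tags over the 5 columns. Of the tags outside those 50, PRC2 hairpins held 0.935%, 0.684%, 0.875%, 0.982% and 0.385%. On that base the share at PD55 was above the share at PD40, and the lowest share was again at PD60. Without its leading hairpin the PRC2 share of all tags was 0.117% at PD55 and 0.0170% at PD60.

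The highest of the 5 columns was PD40 for 39 of 43 PRC2 hairpins (90.7%, library 80.4%). It was PD45 for EED TRCN0000021207 and PD50 for EED TRCN0000021204, EZH2 TRCN0000040073 and EZH1 TRCN0000002439. Above their PD40 level at PD45 were 3 of 43 PRC2 hairpins (6.98%), where 17.9% of the library was, and at PD50 4 of 43 (9.30%, library 10.2%). No step brought a rise for 31 PRC2 hairpins (72.1%, library 64.1%). The largest fall came in the first interval for 15 (34.9%, library 36.9%) and from PD45 to PD50 for 14 (32.6%, library 19.8%). It came from PD50 to PD55 for 6 (14.0%, library 22.8%) and from PD55 to PD60 for 8 (18.6%, library 20.6%).

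Starting abundance bounds how far a hairpin can fall, and PRC2 hairpins were compared with hairpins of the same quintile of PD40 tags. The quintiles from lowest to highest held 7, 9, 9, 14 and 4 PRC2 hairpins. Below the median fold change of their own quintile lay 21 of 43 PRC2 hairpins at PD45, 25 of 43 at PD50, 26 of 42 at PD55 and 25 of 42 at PD60. In the quintile from 1412 to 2986 tags, which held 14, the PRC2 median was -1.54 at PD45 against -1.09 for its hairpins, -3.68 against -2.81 at PD50 and -7.32 against -7.19 at PD60. In the same quintile 2 of 14 were at 0 at PD60 (14.3%, against 19.2% of all hairpins of that quintile). From the lowest to the highest quintile, 71.4%, 88.9%, 44.4%, 14.3% and 0% of the PRC2 hairpins were at 0 at PD60. The shares of all hairpins of those quintiles were 84.5%, 69.8%, 45.7%, 19.2% and 1.45%. In the lowest quintile the PRC2 median at PD45 was -1.17 against -2.86. Its 7 PRC2 hairpins include EZH1 TRCN0000002439, which met the minimum only where it was high and so had to count as higher. That hairpin is also among the 43 at PD45 and PD50.

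Genes that act with or against PRC2 were measured in the same way, and their counts are to be read against the 95.3% of all hairpins over 2-fold lower at PD60 and the 85.9% that fell in the trend test with column totals. UTX, the older name of the H3K27 demethylase KDM6A, was the only gene of the demethylase list in the table. Its 5 hairpins had a mean of -1.44 (SD 1.83) at PD45 and -5.64 at PD60, and 5 of 5 fell in the trend test with column totals. UTX TRCN0000107761 had 53.0 CPM at PD40, 108 at PD45 and 1.30 at PD50. For Polycomb repressive complex 1, which can bind the PRC2 mark and ubiquitinates histone H2A, 93 of 95 hairpins of 19 genes were over 2-fold lower at PD60 (median -6.32) and 82 of 89 tested fell. Its highest gene mean at PD60 was that of CBX6 (-4.66) and its lowest that of RING1 (-7.64).

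BAP1 and ASXL1, which form the deubiquitinase that reverses that H2A mark, had means of -4.75 and -5.61 at PD60, and 7 of 7 tested hairpins fell. Of 17 genes in other complexes that contain RBBP4 or RBBP7, 82 of 85 hairpins were over 2-fold lower at PD60 and 1 was over 2-fold higher, against HDAC2. Their gene means ran from -7.15 (SIN3A, a corepressor scaffold) to -4.14 (CHD4, the ATPase of the NuRD complex), with a median of -5.49. For CDKN2A, the locus that PRC2 silences, 6 of 7 hairpins were over 2-fold lower at PD60 and 1 was over 2-fold higher. The higher one was TRCN0000010482, with 10168 CPM at PD40 and 83602 at PD60. In the trend test with column totals 5 of the 7 fell and 1 rose. CDKN2A TRCN0000039751 peaked at PD50 like EED TRCN0000021204, with 562, 1295, 2447, 550 and 86.2 CPM, and was singled out after its values were seen.

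LMNB1, a lamin gene whose hairpins served the study as a control, had a mean of -3.71 (SD 4.65, 5 hairpins) at PD60.

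Among 623 other genes with at least 3 measured hairpins, ZNF238, TADA2L and NCOA1 had mean fold changes at the 4 later doublings closest to the median of the 8 PRC2 gene means. Their Euclidean distances over the 4 values were 0.29, 0.31 and 0.33 log2 units. For ZNF238 the means were -1.87, -4.06, -5.32 and -6.03, beside -1.89, -4.17, -5.45 and -5.81 for the PRC2 median. Likeness over 4 points that share 1 reference column is a description.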

How the data were processed

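Integrated hairpins were amplified from genomic DNA, digested and sequenced, per the labels' protocols. The authors deposited raw counts, per the file headers tags per hairpin, with 1 column for each of 5 population doublings. The submitters' processing notes name Bowtie 1.0.1. How the 10 plates of a doubling became 1 column, the aligner's settings and the build are not stated in what was used here, so each column was treated as the authors' pooled value, without replicates.

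Counts were scaled to column totals of 8270745 to 11505688 tags. Fold changes used a pseudocount of 1 CPM and required 10 counts in PD40 or the later column. The trend was fitted on the 3116 hairpins with 10 counts in 2 columns, with edgeR 4.0.16 in R 4.3.3, and called at an adjusted p under 0.05. Alternatives were TMM scaling, DESeq2 1.42.0, and other pseudocounts, minimums, fold limits and columns. Python 3.11.15, numpy 2.4.6, pandas 2.3.3 and scipy 1.17.1 did the rest.

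The 8 genes and the companion lists were chosen with earlier results of these data known. The naming rule took each gene's hairpins with the highest and lowest value at PD60, the most abundant ones, those over 2-fold higher at any doubling, the 3 most alike genes and, per companion list, the genes with the highest and lowest mean. Others named were chosen after their values were seen. A list of other PRC2 subunits matched 0 genes of the table.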

Additional observations from a re-analysis of the deposited data

How the results depend on the processing

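No paired analysis was possible because the 10 plates of a doubling share 1 column. The median PRC2 fold change at PD60, -6.26, kept its sign in every setting run. It was -7.18 and -3.55 with pseudocounts of 0.5 and 10 CPM, -2.66 with TMM scaling, -6.20 with no count minimum and -6.31 with at least 100 counts at PD40. With PD55 as the end point it was -5.66, and for the mean of PD55 and PD60 against that of PD40 and PD45 it was -5.14. Leaving out each gene in turn gave -6.35 to -6.05.

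The 29 hairpins over 2-fold lower at PD45 became 15 with TMM scaling (library 35.8%) and 19 with a fold limit of 4, and the 38 at PD50 became 24 with TMM scaling (library 47.2%). Over 2-fold higher with TMM scaling were 8 at PD50, 4 at PD55 and 5 at PD60 (library 24.9%, 23.4% and 18.6%), in place of 3, 2 and 0. Of the 36 falling trends, 14 were called with TMM scaling, 18 with DESeq2's size factors, 17 with DESeq2's Wald test and 3 of 6 tested with 10 counts in every column. Rising trends were 3 with TMM scaling and 3 with the Wald test, in place of 0. Leaving out 1 column gave 27 to 36 falling, the lowest counts being 27 of 31 tested without PD40 and 27 of 30 without PD45, and 0 rising.

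The PRC2 share of tags, 0.772%, 0.448%, 0.404%, 0.241% and 0.0658% from PD40 to PD60, was 0.935%, 0.684%, 0.875%, 0.982% and 0.385% of the tags outside the 50 most abundant hairpins. Without the leading PRC2 hairpin of each column it was 0.693%, 0.342%, 0.229%, 0.117% and 0.0170%. All 8 gene means at PD60 stayed below 0 under the 4 alternatives run on them. For TMM scaling and DESeq2 the cause was not tested. With 1 pooled column per doubling, depth limits only counts near 0, and the spread between plates is unknown.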
